A study of Homo sapiens with 12 samples.

Results

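Mitotic genes encode the proteins that take a cell from the end of DNA replication through chromosome segregation and division. A set of 41 such genes was followed in U937, a human acute myeloid leukemia (AML) cell line of monocytic type, treated with decitabine (DAC), a cytosine analog that lowers DNA methylation, and with all-trans retinoic acid (ATRA), a ligand of the retinoic acid receptors. The members were chosen by symbol: every transcript row of the expression table whose gene symbol was on the list was taken, and for each symbol the row with the highest mean over the 12 libraries stood for the gene. All 41 symbols were found, among 44786 symbols and 197782 transcript rows. The 4 groups of 3 libraries each were untreated cells, cells given 200 nM DAC, cells given 1 µM ATRA, and cells given 200 nM DAC with 1 µM ATRA (DAC + ATRA). DAC was renewed with the medium on 3 consecutive days, and according to the methods ATRA was given with the third DAC dose. By the labels, untreated libraries stand at 96 h and treated ones at 72 h, while the series' design text gives 72 h for the harvest, so by these labels hours in culture and treatment cannot be told apart in the comparisons against untreated, while the 3 treated groups share the same hours. The methods speak of vehicle-treated controls, whereas the labels call them untreated. All libraries came from 1 established line grown with GM-CSF, which the culture methods do not list. The triplicates are described as technical, so p-values measure the spread between these libraries and not between independent experiments.

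Entry into mitosis is driven by the kinase CDK1 bound to cyclin B, which CDC25 phosphatases switch on. The spindle is then built by kinesin motors and microtubule-binding proteins, and chromosomes attach to it through kinetochores. The spindle checkpoint holds the anaphase-promoting complex (APC/C) in check until every kinetochore is attached, after which securin and cyclin B are destroyed, separase opens cohesin and the cell divides. Most of these genes are transcribed in a wave late in the cell cycle. Many of their promoters carry a cell cycle genes homology region (CHR), with the letters TTTGAA or TTCGAA, which is bound by the DREAM complex in resting cells and by MuvB with B-MYB and FOXM1 in cycling cells, often a short distance from CCAAT boxes bound by NF-Y.

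RefSeq promoter windows of 300 bases (GRCh38.p14, from 250 bases before to 50 after the transcription start) were matched to 35 of the 41 genes, and where a gene had several starts the one nearest to its expression row was used. AURKA, BIRC5, BUB3, TPX2, TTK and UBE2C had no entry in the table used, so TTK, with 1 of the 3 lowest log2 fold changes under DAC + ATRA, is not shown. The 120 bases before the start are shown for the others of the 3 lowest and the 3 highest log2 fold changes under DAC + ATRA as an example of how the late cell cycle elements lie in the genes' annotated promoters. For 22 of the 35 genes the expression row started within 1000 bases of the window's start site, for 12 it started further downstream and for 1 further upstream. Among the 5 shown, only the CDC25B row starts at the site, while the rows of KIF23, ANLN and KIF15 start 31951, 59077 and 81329 bases downstream and that of PLK1 1233 bases upstream, so those 4 windows are promoters of the gene and not of the measured transcript. Capitals mark TTTGAA and TTCGAA, and CCAAT, each searched on both strands (TTCAAA and ATTGG on the other strand), with overlapping matches allowed.
KIF23, chr15:69414229-69414348, plus strand: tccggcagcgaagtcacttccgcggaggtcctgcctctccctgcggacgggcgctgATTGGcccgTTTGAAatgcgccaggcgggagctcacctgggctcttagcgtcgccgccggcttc
ANLN, chr7:36389742-36389861, plus strand: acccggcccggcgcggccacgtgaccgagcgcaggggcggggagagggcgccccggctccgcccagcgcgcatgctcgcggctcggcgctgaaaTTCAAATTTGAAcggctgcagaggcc
KIF15, chr3:44761674-44761793, plus strand: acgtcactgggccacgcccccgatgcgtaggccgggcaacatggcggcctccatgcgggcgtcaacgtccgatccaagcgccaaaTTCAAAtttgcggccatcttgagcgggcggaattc
PLK1, chr16:23678769-23678888, plus strand: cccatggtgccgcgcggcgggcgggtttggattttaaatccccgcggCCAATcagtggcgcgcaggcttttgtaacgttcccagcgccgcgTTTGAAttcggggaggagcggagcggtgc
CDC25B, chr20:3796190-3796309, plus strand: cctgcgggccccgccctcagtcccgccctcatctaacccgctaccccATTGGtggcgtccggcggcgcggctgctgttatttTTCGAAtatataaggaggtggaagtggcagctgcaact

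In these 5 windows KIF23, PLK1 and CDC25B hold both kinds of element, and ANLN and KIF15 hold TTTGAA alone. ANLN carries the element as a palindrome, with adjoining matches on the strands at 26 and 20 bases before the start. Over the 35 genes, TTTGAA was found in the windows of 26 (74.3%) against 15.2% of all 35116 promoters in the table, and TTCGAA in 3 (8.57%) against 1.45%. CCAAT was found in 27 (77.1%) against 34.6% of all promoters. Windows with a CHR sequence and CCAAT together made up 22 of 35 (62.9%) against 6.38% of all. Among the 26 tested genes with a window, 7 of 7 that were called with DAC or DAC + ATRA and 15 of 19 that did not pass the test held TTTGAA or TTCGAA. The 7 include CDC25B, whose row entered the test only through libraries with DAC. They also include KIF23, whose row starts 31951 bases from its window. A link between these letters and the calls was not tested. A match is a description of letters and not of a bound site.

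The expression values were normalized read counts per transcript, and the libraries held 8042435 to 10683593 counted reads. A transcript was tested if its normalized read count was at least 10 in at least 3 libraries, which left 29 of the 41 genes among 19373 tested rows. Of the 29, CDC25B reached 10 only in libraries with DAC, NUSAP1 only in the ATRA libraries and ANLN only in libraries without DAC, so each entered the test through the groups where it was high, and a difference in its row is a description and not a test result. The 12 genes without a tested row were CCNA2, CDC25C, AURKA, BIRC5, BUB1B, CENPE, NUF2, CDC20, KIF20A, KIF20B, TPX2 and ECT2, none of which had over 74 reads in its best row over all libraries. Counting was per transcript and htseq-count by default discards a read that several features share. With that setting, genes with many overlapping transcripts keep few reads, so a low value was not read as low expression. For the same reason levels are not compared between genes. Of the 41 rows, 22 were protein-coding transcripts, 13 were retained-intron transcripts and 6 were of another biotype, by GENCODE 44. The depth behind the tested genes ran from 86 reads for ANLN to 184880 for TOP2A, and 3 reads in a library equal 2.497 to 3.71 normalized reads.

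Against untreated cells, a subset of the measured mitotic genes was lower with DAC, and none passed the test with ATRA alone. The labelled hours also differ in these comparisons. No member differed between DAC + ATRA and DAC past the test. With DAC, 5 of 29 genes fell, namely CDK1, MAD2L1, TTK, KIF18A and KIF23, and KIF4A rose. With DAC + ATRA, 6 fell, namely CDK1, MAD2L1, TTK, KIF11, KIF18A and KIF23. The rows of CDK1, TTK and KIF23 were retained-intron transcripts, and those of MAD2L1, KIF18A and KIF11 were protein-coding. CDC25B passed the threshold as higher in both comparisons and is counted among the calls below. Without CDC25B, NUSAP1 and ANLN, the calls were 5 lower and 1 higher of 26 with DAC, and 6 lower and 0 higher of 26 with DAC + ATRA. The test throughout was limma on log2(normalized read count + 1) across all 12 libraries with Benjamini-Hochberg adjustment over all 19373 rows and a threshold of 0.01. Fold changes are on that scale, which understates the change of low genes. The share called under DAC was 24.1% of the members against 33.5% of all rows. By direction, 17.2% of members were lower against 11.3% of all rows, and 6.9% were higher against 22.2%. Under DAC + ATRA 24.1% of members were called against 41.6% of all rows, with 20.7% lower against 16.1% and 3.45% higher against 25.5%. The median log2 fold change of the members was -0.33 with DAC and -0.34 with DAC + ATRA, where that of all tested rows was 0.05 in both. In bulk RNA, fewer dividing cells and less RNA per dividing cell cannot be told apart.

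**Figure D1:**
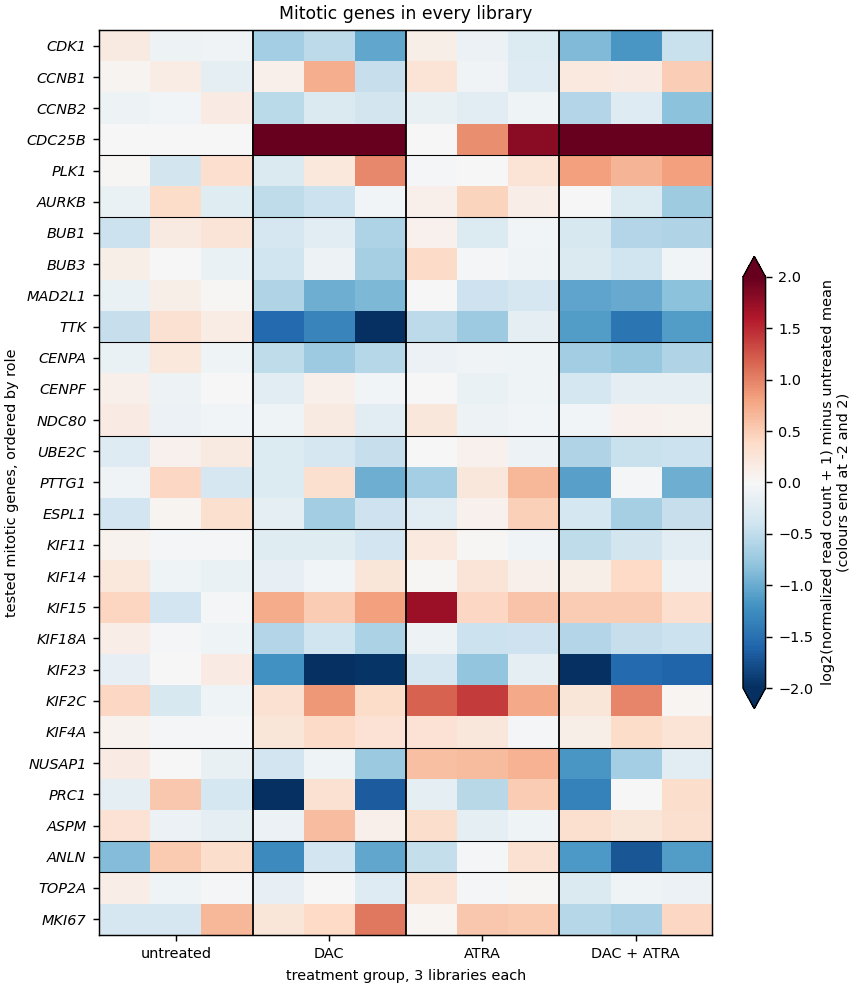
Each cell of the heat map is 1 library (columns, 3 per treatment group) and 1 of the 29 tested mitotic genes (lines, ordered by role), coloured by log2(normalized read count + 1) minus the mean of the untreated libraries, with colours ending at -2 and 2. KIF23, TTK and MAD2L1 are blue in all DAC and DAC + ATRA libraries, CDC25B is deep red in the same 6 libraries, and most other genes stay pale.

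Without any threshold on the size of the change, all 3 DAC libraries lay below all 3 untreated libraries for 9 of 29 members (31.0%, against 23.6% of all rows) and above them for 3 (10.3%, against 31.6%). For DAC + ATRA, 12 members lay below (41.4%, against 27.7%) and 4 above (13.8%, against 34.2%). The 12 were CDK1, CCNB2, MAD2L1, TTK, CENPA, CENPF, UBE2C, KIF11, KIF18A, KIF23, NUSAP1 and ANLN, and the 4 were CCNB1, CDC25B, PLK1 and KIF4A. CDC25B is also among the 3 above with DAC. The rows of NUSAP1, ANLN and CDC25B entered through the groups where they were high, so their separation is a description only. With 3 against 3 libraries an exact permutation test of a single gene cannot give a p below 0.1.

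How the libraries were scaled bore on these counts. The authors' size factors left the median of all tested rows at 0.05, and scaling to the total reads of each library moved it by -0.12 with DAC and by -0.14 with DAC + ATRA. On that scale 8 members were lower and 1 higher with DAC (15.4% and 19.2% of all rows), and 13 were lower and 1 higher with DAC + ATRA (20.7% and 21.9% of all rows). The members added with DAC + ATRA were CCNB2, BUB3, CENPA, CENPF, UBE2C, ANLN and TOP2A, and KIF4A was no longer called with DAC. ANLN and CDC25B are counted in these DAC + ATRA calls. Their rows entered the test through the groups where they were high, so their calls are not test results. No member called on the authors' scale changed sign on another scale.

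**Figure D2:**
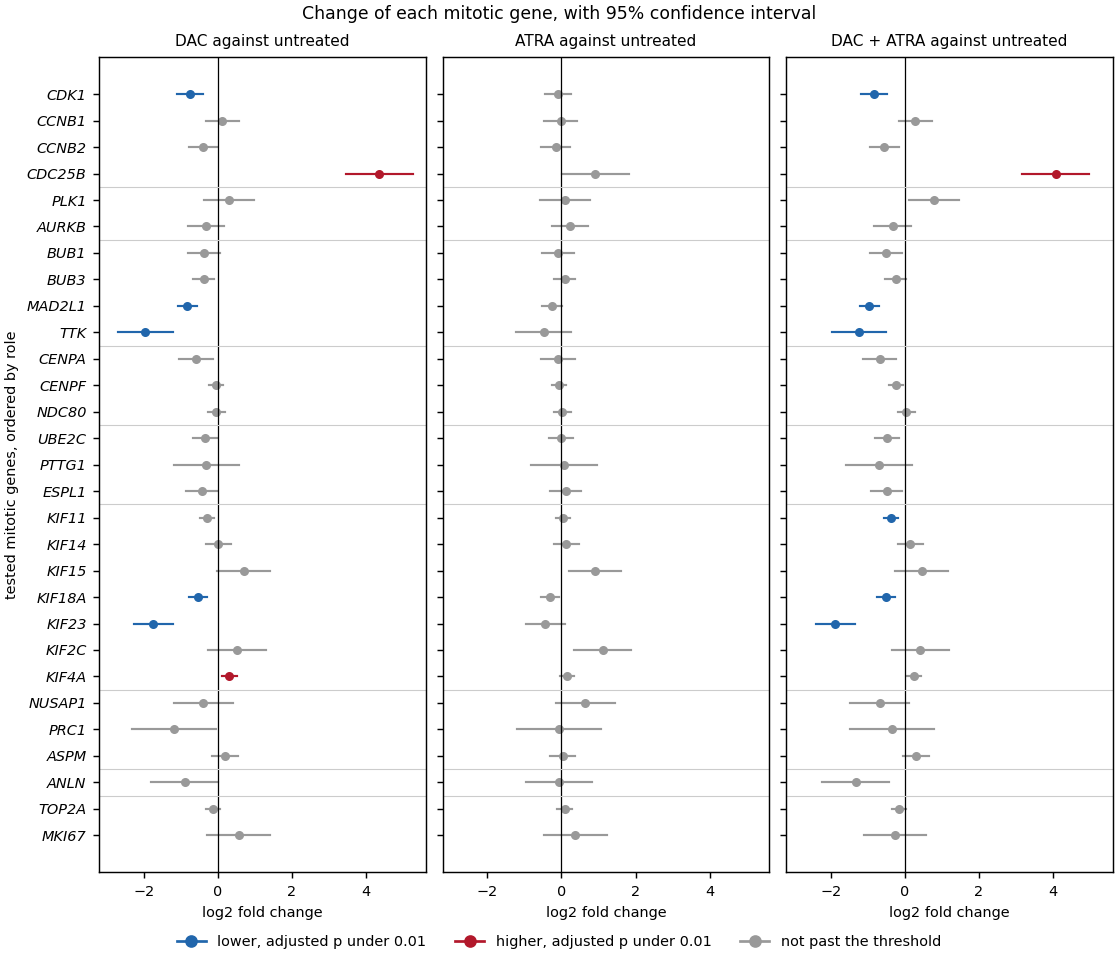
Points give the log2 fold change of each tested mitotic gene (lines, ordered by role) for DAC, ATRA and DAC + ATRA against untreated, and bars give the 95% confidence interval of the limma fit over 12 libraries. With ATRA all 29 points are grey, while 7 points are coloured in each of the panels with DAC.

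CDK1, the kinase of mitotic entry, had normalized read counts of 254, 207 and 211 in the untreated libraries, 138, 155 and 109 with DAC, 242, 205 and 184 with ATRA and 120.2, 98.95 and 163 with DAC + ATRA. Every library with DAC lay below every library without it. The log2 fold change was -0.75 ± 0.17 (SE), adjusted p = 0.000935 with DAC and -0.83 ± 0.17 (SE), adjusted p = 0.000233 with DAC + ATRA, a 1.68-fold and a 1.78-fold decrease. Without DAC library 6 (libraries carry running numbers from 1 to 12), the first fell short of the threshold at -0.60 with adjusted p = 0.0115. This row is a retained-intron transcript (ENST00000475504, chr10:60778365-60787069) with 77.2% of the reads assigned to the gene.

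CCNB1, the cyclin that partners CDK1, read 123, 132 and 103 untreated, 128, 198 and 85.7 with DAC, 144, 113 and 99.04 with ATRA and 136, 134 and 168 with DAC + ATRA. The DAC libraries spread on both sides of the untreated ones, and no comparison passed the test (log2 fold change 0.12 ± 0.22 (SE), adjusted p = 0.68 with DAC and 0.28 ± 0.22 (SE), adjusted p = 0.288 with DAC + ATRA). CCNB2, the other B-type cyclin measured, read 63.4, 65.5 and 76.7 untreated and 45.2, 56.8 and 38.3 with DAC + ATRA, at -0.55 ± 0.19 (SE), adjusted p = 0.0145, just outside the threshold. CCNA2, cyclin A, had at most 1 read in any library and was not tested.

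CDC25B, a phosphatase that activates CDK1, was the member with the highest log2 fold change. Its row held no read in any untreated library, 15.1, 19.5 and 24.9 normalized reads with DAC, 0, 0.91 and 2.5 with ATRA and 12.7, 16.8 and 18.5 with DAC + ATRA. The 6 libraries with DAC did not overlap the 6 without. Set against 3 reads per untreated library, the mean with DAC was at least 7.21-fold higher and that with DAC + ATRA at least 5.82-fold higher. The row entered the test only through these libraries, so no p-value is given. These are few reads, 108 over the 12 libraries. In GENCODE 44 every base of this transcript (ENST00000245960, chr20:3796310-3806115) is shared with another transcript of the annotation, so reads assigned to it depend on the annotation used for counting. With all rows of the gene summed, the untreated libraries held 1.84, 1.82 and 3.69 and the DAC libraries 16.2, 20.5 and 27.9. The start of this transcript coincides with the CDC25B promoter shown above. CDC25C, the related phosphatase, was not tested.

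Of the kinases that act with CDK1, PLK1 (polo-like kinase 1, which promotes entry and spindle assembly) read 11.03, 8.19 and 13.9 untreated, 8.65, 12.7 and 21.9 with DAC, 10.6, 10.9 and 13.3 with ATRA and 19.9, 17.9 and 19.8 with DAC + ATRA. All 3 DAC + ATRA libraries were above the untreated ones, but the log2 fold change of 0.77 ± 0.33 (SE) missed the threshold (adjusted p = 0.0498). AURKB, the kinase of the chromosomal passenger complex, read 34.01, 48.2 and 31.4 untreated, 25.9, 27.3 and 35.9 with DAC, 40.1, 50.98 and 40.8 with ATRA and 37.1, 30.5 and 22.2 with DAC + ATRA, each treated group overlapping the untreated one, with log2 fold changes of -0.33 ± 0.24 (SE), 0.23 ± 0.24 (SE) and -0.33 ± 0.24 (SE) against untreated. Adjusted p ranged from 0.246 to 0.647 over these 3 comparisons. AURKA and BIRC5 (survivin) were not tested.

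The spindle checkpoint held 2 of the decreases. MAD2L1 encodes MAD2, which binds and inhibits the APC/C activator CDC20 at unattached kinetochores. It read 819, 974 and 909 untreated, 593, 456 and 482 with DAC, 892, 677 and 709.9 with ATRA and 430.3, 447 and 509 with DAC + ATRA. The DAC and DAC + ATRA libraries were all below the 6 others, and the decrease was 1.77-fold with DAC (log2 fold change -0.82 ± 0.13 (SE), adjusted p = 7.59e-06) and 1.95-fold with DAC + ATRA (-0.96 ± 0.13 (SE), adjusted p = 5.52e-07). MAD2L1 was called in both comparisons under every alternative in which it was tested. It is a protein-coding row (ENST00000296509, chr4:120055623-120066848) that holds 99.9% of the gene's reads.

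TTK (MPS1), the kinase that starts checkpoint signaling, read 22.1, 38.2 and 34.2 untreated, 9.73, 11.7 and 2.99 with DAC, 21.1, 18.2 and 26.6 with ATRA and 13.6, 10.5 and 13.6 with DAC + ATRA. DAC libraries fell to between 2.99 and 11.7, a 3.88-fold decrease (log2 fold change -1.96 ± 0.36 (SE), adjusted p = 6.77e-05), and DAC + ATRA gave a 2.35-fold decrease (-1.23 ± 0.36 (SE), adjusted p = 0.00517). The second call rested on few reads and was lost without untreated library 2 or 3 or without any one of DAC + ATRA libraries 10, 11 and 12, with log2 fold changes of -1.08 to -1.29 and adjusted p from 0.0107 to 0.0337. The row is a retained-intron transcript (ENST00000504590, chr6:80037553-80040271).

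BUB3, a checkpoint scaffold with 14592 reads, read 1383, 1284 and 1169 untreated and 972, 1189.5 and 805 with DAC, and its log2 fold change of -0.39 ± 0.14 (SE) did not pass (adjusted p = 0.0241). BUB1, a checkpoint kinase of the kinetochore, was at -0.39 ± 0.21 (SE) with DAC and -0.50 ± 0.21 (SE) with DAC + ATRA (adjusted p = 0.137 and 0.0482). BUB1B was not tested.

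Among centromere and kinetochore genes, 0 of the 3 tested passed limma's threshold, with 1 at an unadjusted p under 0.05 with DAC and 2 with DAC + ATRA. CENPA, the histone variant that marks the centromere, read 31.2, 40.1 and 32.3 untreated, 23.8, 20.5 and 22.9 with DAC, 31.7, 32.8 and 32.5 with ATRA and 20.8, 20.001 and 22.2 with DAC + ATRA. Its groups with and without DAC did not overlap, and the log2 fold change was -0.60 ± 0.22 (SE), adjusted p = 0.0296 with DAC and -0.68 ± 0.22 (SE), adjusted p = 0.0114 with DAC + ATRA. CENPF, a large kinetochore protein with 138803 reads, read 12734, 11140.2 and 11948 untreated, 10326, 12823 and 11482 with DAC, 11971, 10884 and 11254 with ATRA and 9331, 10513 and 10388 with DAC + ATRA. Here the fit was narrow: the 95% confidence interval of the log2 fold change was -0.24 to 0.13 with DAC and -0.43 to -0.06 with DAC + ATRA. NDC80, the microtubule-binding subunit of the outer kinetochore, had intervals of -0.27 to 0.19 and -0.19 to 0.27. CENPE and NUF2 were not tested.

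None of the 3 tested anaphase genes passed the test against untreated. UBE2C, the ubiquitin-conjugating enzyme of the APC/C, read 87.3, 111 and 118 untreated, 86.5, 82.8 and 75.7 with DAC, 105, 111 and 97.4 with ATRA and 68.7, 76.8 and 77.9 with DAC + ATRA. Both groups with DAC lay below the untreated libraries, at -0.36 ± 0.16 (SE), adjusted p = 0.0704 with DAC and -0.49 ± 0.16 (SE), adjusted p = 0.0122 with DAC + ATRA. ESPL1 (separase, which cuts cohesin) read 68.01, 92.8 and 112 untreated, 77.8, 54.6 and 66.7 with DAC, 77.1, 94.7 and 124 with ATRA and 69.6, 55.8 and 64.3 with DAC + ATRA, and reached -0.49 ± 0.20 (SE), adjusted p = 0.0433 with DAC + ATRA. PTTG1 (securin, the inhibitor of separase) had 123 reads and was at -0.31 ± 0.43 (SE) and -0.70 ± 0.43 (SE). CDC20 was not tested.

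Of 7 tested mitotic kinesins, the motor proteins of spindle and midzone, 2 were lower and 1 higher with DAC. These are 28.6% and 14.3%, against 11.3% and 22.2% of all rows. With DAC + ATRA only decreases were called among them. KIF23 (MKLP1, the kinesin of the centralspindlin complex at the midzone) read 79.04, 88.3 and 99.7 untreated, 37.8, 20.5 and 21.9 with DAC, 69.7, 50.98 and 78.2 with ATRA and 15.4, 29.5 and 28.4 with DAC + ATRA. The libraries with DAC did not overlap those without, and the decrease was 3.35-fold with DAC (log2 fold change -1.75 ± 0.26 (SE), adjusted p = 3.66e-06) and 3.66-fold with DAC + ATRA (-1.87 ± 0.26 (SE), adjusted p = 9.37e-07). The row is a retained-intron transcript (ENST00000559944, chr15:69446300-69447823) that starts 31951 bases downstream of the promoter shown above. KIF18A, which limits chromosome movement at the metaphase plate, read 802, 713 and 687 untreated, 485, 556 and 474 with DAC, 682, 543 and 550.1 with ATRA and 486, 529 and 541 with DAC + ATRA. It fell 1.45-fold with DAC (-0.54 ± 0.12 (SE), adjusted p = 0.000539) and 1.41-fold with DAC + ATRA (-0.50 ± 0.12 (SE), adjusted p = 0.000935), on a protein-coding row (ENST00000263181, chr11:28020619-28108156). The 3 ATRA libraries also lay below the 3 untreated ones, without passing the test (-0.31 ± 0.12 (SE), adjusted p = 0.0912).

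KIF11 (Eg5, the motor that separates the spindle poles) has a single transcript row in the table (ENST00000260731, chr10:92593130-92655395) with 89086 reads. It read 8298, 7738 and 7732 untreated, 6703, 6719 and 6049 with DAC, 9091, 8041 and 7561 with ATRA and 5589, 6147 and 6752 with DAC + ATRA. Every library with DAC was below every library without it, by 1.29-fold with DAC + ATRA (-0.37 ± 0.09 (SE), adjusted p = 0.0016) and by 1.22-fold with DAC (-0.29 ± 0.09 (SE), adjusted p = 0.0121), of which only the first passed. That call was lost without untreated library 1 (-0.33, adjusted p = 0.0127) or DAC + ATRA library 10 (-0.30, adjusted p = 0.0171). KIF4A, a chromosome-bound motor of the midzone, moved the other way at 7863, 7347 and 7309 untreated, 8913, 9774 and 9215 with DAC, 9177, 8807 and 7266 with ATRA and 8130.3, 9726 and 9024 with DAC + ATRA. The increase of 1.24-fold with DAC (0.31 ± 0.09 (SE), adjusted p = 0.00878) passed narrowly, and the call was made under 8 of 22 alternatives. Leaving out any one of the untreated or DAC libraries, or DAC + ATRA library 11 or 12, ended it, with log2 fold changes of 0.27 to 0.34 and adjusted p from 0.0101 to 0.0431.

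KIF2C (MCAK, which depolymerizes microtubules at the centromere) read 8.27, 4.55 and 5.54 untreated, 7.57, 11.7 and 7.97 with DAC, 14.8, 17.3 and 10.8 with ATRA and 7.23, 12.6 and 6.18 with DAC + ATRA. Its row reached 10 in all 3 ATRA libraries and in no untreated one, and the log2 fold change of 1.11 ± 0.38 (SE) with ATRA did not pass. KIF14 and KIF15 did not pass in any of these comparisons, and KIF20A and KIF20B were not tested.

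**Figure D3:**
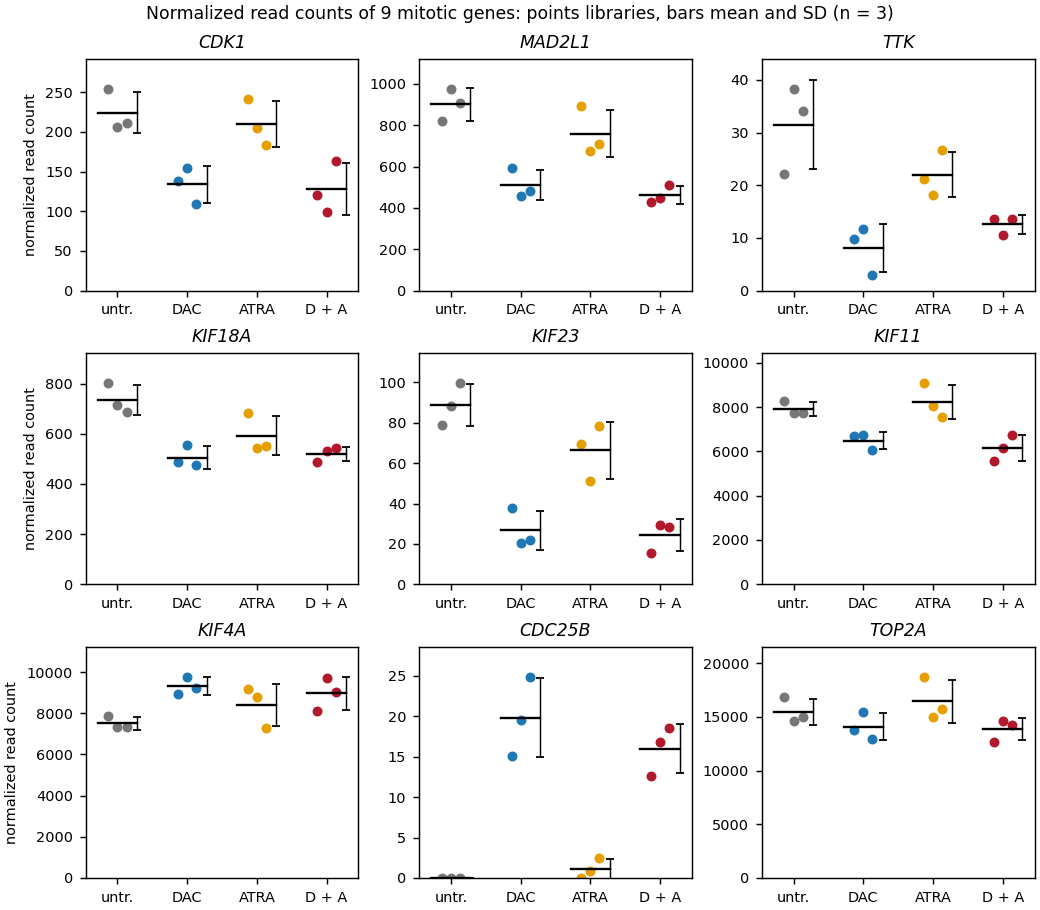
The 9 panels show the normalized read count (linear axis from 0) of 9 mitotic genes, with a point for each library, a bar at the group mean and whiskers of 1 SD (n = 3), for untreated (untr.), DAC, ATRA and DAC + ATRA (D + A). MAD2L1 and KIF23 separate libraries with DAC from those without, CDC25B is at 0 untreated, and in TOP2A the untreated, DAC and DAC + ATRA libraries overlap.

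Among the spindle and cytokinesis genes, PRC1, NUSAP1 and ANLN had few reads and ASPM had more. PRC1, which bundles midzone microtubules, read 7.35, 12.7 and 6.46 untreated, 1.08, 10.7 and 1.99 with DAC, 7.39, 5.46 and 12.5 with ATRA and 2.71, 8.42 and 11.1 with DAC + ATRA, a spread among DAC libraries as large as any difference (-1.18 ± 0.55 (SE), adjusted p = 0.0813 with DAC). NUSAP1, a spindle protein that binds microtubules near chromatin, read 8.27, 7.28 and 6.46 untreated, 5.4, 6.82 and 3.98 with DAC, 11.6, 11.8 and 12.5 with ATRA and 2.71, 4.21 and 6.18 with DAC + ATRA. All ATRA libraries were above and all DAC + ATRA libraries below the untreated ones, at log2 fold changes of 0.64 and -0.68, and no p-value is given because of how the row entered the test. ASPM, a spindle pole protein with 3087 reads, was at 0.20 ± 0.17 (SE) with DAC and 0.29 ± 0.17 (SE) with DAC + ATRA. ANLN (anillin, the scaffold of the cleavage furrow) read 4.6, 13.7 and 12.01 untreated, 3.24, 6.82 and 3.98 with DAC, 6.34, 9.1 and 11.7 with ATRA and 3.62, 2.11 and 3.71 with DAC + ATRA. DAC + ATRA libraries held 2 to 4 reads each for it, and the log2 fold change was -1.33, given without a p-value because the row, like that of NUSAP1, entered the test through libraries without DAC. TPX2 and ECT2 were not tested.

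TOP2A, the topoisomerase that disentangles sister chromatids, was the deepest member. It read 16866, 14591 and 14974 untreated, 13818, 15497 and 12977 with DAC, 18748, 14957 and 15734 with ATRA and 12699, 14598 and 14289.5 with DAC + ATRA. The DAC and DAC + ATRA libraries overlapped the untreated ones, DAC + ATRA lay below ATRA, and against untreated the 95% confidence interval of the log2 fold change was -0.33 to 0.06 with DAC and -0.35 to 0.04 with DAC + ATRA. MKI67, which encodes the proliferation antigen Ki-67, read 5.51, 5.46 and 12.01 untreated, 8.65, 9.74 and 15.9 with DAC, 7.39, 10.9 and 10.8 with ATRA and 4.52, 4.21 and 9.89 with DAC + ATRA. With 108 reads in all, its interval ran from -0.28 to 1.41 with DAC and from -1.11 to 0.58 with DAC + ATRA, so increases and decreases within these bounds could not be told from no change.

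With ATRA alone, 0 of 29 members were called by limma, where 6.97% of all rows were. At an unadjusted p under 0.05 there were 4, and edgeR and DESeq2 on the recovered reads also called 0. All 3 ATRA libraries lay above all untreated ones for KIF2C and NUSAP1 and below them for KIF18A and KIF23 (6.9% each way, against 13.3% above and 11.7% below for all rows). The median log2 fold change was 0.03 and the values ran from -0.48 for TTK to 1.11 for KIF2C. Adding ATRA to DAC gave 0 calls against DAC alone, where 8.77% of all rows were called, with 1 member at an unadjusted p under 0.05 and 0 calls by edgeR or DESeq2. The single member at that level was CENPF (-0.19 ± 0.09 (SE), adjusted p = 0.173). For the members that fell with DAC, the difference between DAC + ATRA and DAC had 95% confidence intervals of -0.44 to 0.27 for CDK1, -0.40 to 0.12 for MAD2L1, -0.20 to 0.28 for KIF18A, -0.65 to 0.40 for KIF23 and -0.01 to 1.46 for TTK on the log2 scale. The interaction of DAC and ATRA, which asks whether the effect of ATRA differs with DAC, was called for 0 of 29 members by limma (1.51% of all rows), with 5 at an unadjusted p under 0.05 and 0 by edgeR or DESeq2.

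Against ATRA alone, 5 of 29 members were called as lower with DAC + ATRA and 1 as higher, together 20.7% where 29.4% of all rows were called, with 17.2% lower against 10.2% and 3.45% higher against 19.1%. Those lower were CDK1 (-0.74 ± 0.17 (SE), adjusted p = 0.00115), MAD2L1 (-0.71 ± 0.13 (SE), adjusted p = 6.27e-05), KIF11 (-0.42 ± 0.09 (SE), adjusted p = 0.000625) and KIF23 (-1.44 ± 0.26 (SE), adjusted p = 5.82e-05). The other 2 calls were NUSAP1 (lower) and CDC25B (higher), which entered the test only through the ATRA libraries and only through libraries with DAC, and without NUSAP1, CDC25B and ANLN the calls were 4 lower and 0 higher of 26. The CDK1 call was lost without ATRA library 7 (-0.63, adjusted p = 0.0107) or DAC + ATRA library 11 (-0.57, adjusted p = 0.0169). TTK and KIF18A, called as lower against untreated, were not called against ATRA. Both groups of this comparison are labelled 72 h, so the labelled hours do not differ between them. It shares the DAC + ATRA libraries with the comparison against untreated.

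Transcripts of the same gene often had different values. Besides the 29 rows that stood for the genes, 13 other rows of 10 members were tested. In TOP2A the protein-coding row lay within its spread, and a retained-intron row (ENST00000578412, 154 reads) read 18.4, 19.1 and 17.5 untreated, 6.49, 4.87 and 5.98 with DAC, 19.01, 20.03 and 14.98 with ATRA and 9.04, 5.26 and 4.94 with DAC + ATRA. Every library with DAC was below every untreated library in that row, at a log2 fold change of -1.52 with DAC and -1.42 with DAC + ATRA. The row reached 10 only in the libraries without DAC and so entered the test through them, and no p-value is given. In NDC80 a shorter protein-coding row (ENST00000574096) fell with DAC (-0.997 ± 0.25 (SE), adjusted p = 0.00205) and did not pass with DAC + ATRA (-0.69 ± 0.25 (SE), adjusted p = 0.0224), while the main row was at -0.04 with DAC and 0.04 with DAC + ATRA. In BUB3 a row without a defined coding sequence (ENST00000481952) fell with DAC (-1.07 ± 0.28 (SE), adjusted p = 0.00295) and did not pass with DAC + ATRA (-0.68 ± 0.28 (SE), adjusted p = 0.0449). For CDK1 the other tested row (ENST00000487784) fell with DAC + ATRA (-1.59 ± 0.38 (SE), adjusted p = 0.00192) and did not pass with DAC (-1.14 ± 0.38 (SE), adjusted p = 0.0202). For KIF23 the other row (ENST00000558303) fell with DAC (-0.97 ± 0.28 (SE), adjusted p = 0.00627) and did not pass with DAC + ATRA (-0.47 ± 0.28 (SE), adjusted p = 0.16). In KIF4A another row (ENST00000485406) rose with DAC (1.34 ± 0.28 (SE), adjusted p = 0.000327) and with DAC + ATRA (1.13 ± 0.28 (SE), adjusted p = 0.00142), in the direction of the main row. The difference between rows of a gene was not tested.

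**Figure D4:**
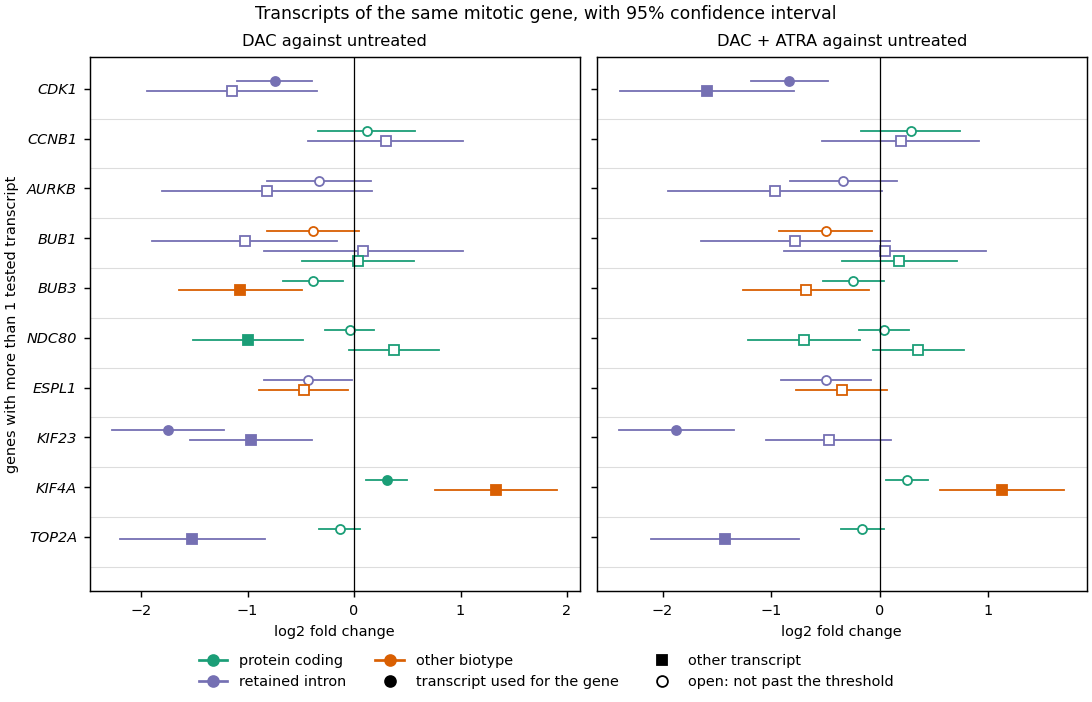
For the 10 mitotic genes with more than 1 tested transcript, the log2 fold change (horizontal axis) of each transcript is shown with its 95% confidence interval, for DAC and for DAC + ATRA against untreated, with circles for the row that stood for the gene and squares for the others. The purple retained-intron square of TOP2A lies at -1.52 with DAC and its green protein-coding circle at -0.14.

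The kind of transcript went with the direction of change across the whole table. With DAC, 14.9% of the 4386 tested retained-intron rows were lower and 9.85% higher, with a median log2 fold change of -0.21, while 8.73% of the 8784 protein-coding rows were lower and 30.7% higher, with a median of 0.22. Among the members, 3 of the 10 tested retained-intron rows (CDK1, TTK and KIF23) and 2 of the 15 protein-coding rows (MAD2L1 and KIF18A) were lower with DAC. Medians of the members were -0.59 for retained-intron rows and -0.05 for protein-coding rows, each below that of its class. With DAC + ATRA the members' medians were -0.69 and -0.24 beside -0.19 and 0.20 for all rows of those classes. The part of transcript kind in the decreases was not tested. MAD2L1, KIF18A and KIF11 fell on protein-coding rows.

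The rest of the mitotic machinery was read from a list of 140 further genes, of which 111 had a tested row. With DAC 20 of them were lower and 6 higher (18.0% and 5.41%, against 11.3% and 22.2% of all rows), with ATRA 0 were called by limma, and with DAC + ATRA 31 were lower and 7 higher (27.9% and 6.31%, against 16.1% and 25.5%). Of the 111, 7 rows reached 10 only in libraries without DAC, and without them 19 were lower and 6 higher with DAC, and 30 lower and 7 higher with DAC + ATRA. The 20 lower with DAC became 34 when libraries were scaled to their total reads (15.4% of all rows), 12 of 88 among protein-coding transcripts (8.7%), and 13 without untreated library 1, untreated library 2 or DAC library 6 (9.1%, 7.78% and 8.47%). The 31 lower with DAC + ATRA became 44 when libraries were scaled to their total reads (20.7% of all rows). Leaving out 1 library at a time gave 21 to 32 lower with DAC + ATRA (12.1% to 17.1% of all rows). With ATRA, 7 were higher without ATRA library 9 (6.2% of all rows) and 0 without any other single library. Scaling to the total reads gave 2 lower with ATRA, no filter gave 2 higher, rows summed by gene gave 2 higher and 1 lower, and edgeR, DESeq2, limma with TMM scaling, a filter of 10 reads in every library and protein-coding transcripts alone each gave 1 lower. With ATRA, 12 of the 111 had an unadjusted p under 0.05. Median log2 fold changes over the 111 were -0.23 (DAC), -0.01 (ATRA) and -0.31 (DAC + ATRA).

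The shares by complex are set against 16.1% of all rows lower and 25.5% higher with DAC + ATRA. In cohesin, the ring that holds sister chromatids together, 5 of 12 genes (41.7%) were lower with DAC + ATRA, from -1.04 for the ring subunit SMC1A to -0.34 for PDS5A, and the loader subunit MAU2 was higher (0.75). In condensin, which compacts chromosomes, 2 of 7 (28.6%) were lower, NCAPD3 (-1.54 ± 0.15 (SE), adjusted p = 2.82e-09) and SMC4 (-0.79 ± 0.11 (SE), adjusted p = 7.87e-07). Among APC/C subunits and partners 3 of 14 (21.4%) were lower, the lowest being ANAPC5 (-0.76), and 2 (14.3%) were higher, with the activator FZR1 (CDH1) at 0.94 ± 0.12 (SE), adjusted p = 5.95e-07. Kinetochore and centromere genes had 9 of 27 (33.3%) lower and 0 higher with DAC + ATRA, from -1.72 for CENPM, which reached 10 in no DAC + ATRA library, to -0.51 for CENPP. Spindle, centrosome and midzone genes had 6 of 28 (21.4%) lower, the lowest being HAUS4 (-2.34, a row that reached 10 only in libraries without DAC), and 3 (10.7%) higher, the highest being RACGAP1 (1.03), the partner of KIF23 in centralspindlin. Of genes for mitotic entry and its transcription 6 of 23 (26.1%) were lower, down to -1.56 for PKMYT1, a kinase that inhibits CDK1, and MASTL (Greatwall kinase) was higher (0.93). FOXM1, the transcription factor of the late cell cycle wave, had log2 fold changes of -1.28 with DAC and -0.91 with DAC + ATRA, in a row that reached 10 in all 6 libraries without DAC and in 1 with it, and so met the filter through the groups where it was high.

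**Figure D5:**
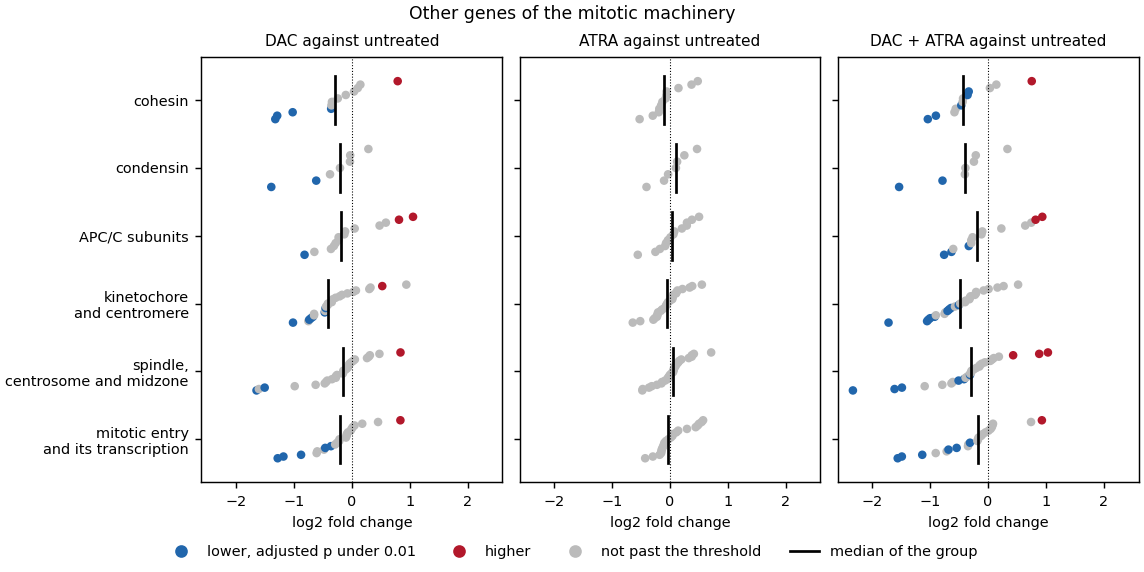
Each point is 1 of 111 further genes of the mitotic machinery, placed by its log2 fold change (horizontal axis) within its complex or function, for DAC, ATRA and DAC + ATRA against untreated. Blue points passed the test as lower and red points as higher, and black bars mark the median of each group, which is below 0 for all 6 groups in both panels with DAC.

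Genes of DNA replication, which are transcribed earlier in the cell cycle, were set beside the mitotic genes. Of 23 tested, 12 were lower with DAC and 16 with DAC + ATRA (52.2% and 69.6%, against 11.3% and 16.1% of all rows), 0 were higher (against 22.2% and 25.5%), and limma called 0 with ATRA. Without GINS4, MCM10 and RFC2, which reached 10 only in libraries without DAC, 11 and 15 of 20 were lower. Between DAC + ATRA and DAC, 4 of these 20 were lower and 0 higher, where 3.59% and 5.18% of all rows were. Their median in that comparison was -0.30. Against untreated, the median log2 fold change of the 23 was -0.60 with DAC and -0.87 with DAC + ATRA, against -0.33 and -0.34 for the mitotic genes. The lowest with DAC + ATRA was RFC4, a subunit of the clamp loader, from a mean of 25.4 untreated to 5.76, in a row that reached 10 in no DAC + ATRA library, and MCM6, a subunit of the replicative helicase, went from a mean of 8578 untreated to 5038 with DAC and 3593 with DAC + ATRA. The difference between the lists was not tested. Among 4 tested inhibitors of cyclin-dependent kinases, CDKN2D was higher with DAC (2.10) and with DAC + ATRA (1.88), CDKN2C was lower (-0.66 and -0.93), and CDKN1A, with group means of 2.74 to 10.6, did not pass.

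The libraries carried the markers of a myeloid line. CD33 had a mean normalized read count of 846 untreated and 760.1 with DAC + ATRA, and MPO, the granule enzyme of immature myeloid cells, went from 52119.6 to 14973 (-1.80 ± 0.15 (SE), adjusted p = 4.28e-08). Of 9 tested myeloid markers, 3 (33.3%, against 25.5% of all rows) were called as higher with DAC + ATRA, namely CEBPA, LYZ and CSF1R, and 1 (11.1%, against 16.1%), MPO, as lower. CSF1R reached 10 only in the DAC + ATRA libraries, and without it 2 of 8 were higher, while PTPRC was at 0 in its best row. Of 12 markers of other lineages 4 had a tested row, among which COL1A1 went from a mean of 18.4 untreated to 225 with DAC and GATA1, which reached 10 only in libraries with DAC, from 0.303 to 12.8, and ALB and HBB were at 0. The part of these changes in the values of the mitotic genes was not tested.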

How the data were processed

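RNA-seq of 12 U937 libraries, 3 for each of 4 treatment groups, was analysed. The libraries were stranded and depleted of ribosomal RNA. Per the labels and methods, the authors aligned reads to hg38 with STAR, counted them per transcript with HTSeq and used DESeq2, with FastQC for read quality. Versions, counting mode and strand setting are not given in the sources used here. The deposited values are a signal, read counts divided by a size factor of the library, in which whole reads were recovered (100.0% of values within 0.001 of a whole read, on the step of each library). Columns give the treatment group and a running number from 1 to 12. There were 8042435 to 10683593 reads per library, of which 36.3 to 42.5% were mitochondrial. This share was 40.6, 42.1 and 42.5% untreated and 40.4, 38.8 and 37.0% with DAC. It was 40.8, 38.9 and 41.1% with ATRA and 38.3, 38.1 and 36.3% with DAC + ATRA. Its part in the values of the mitotic genes was not tested.

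The 41 members and the other gene lists were chosen with earlier results of these data known. Rows that reached a value of 10 in 3 or more libraries entered limma 3.58.1 (trend, robust) as log2(value + 1), over all 12 libraries, with a Benjamini-Hochberg threshold of 0.01. R 4.3.3, edgeR 4.0.16, DESeq2 1.42.0, Python 3.11.15 and pandas 2.3.3 were used. DESeq2 and edgeR were run as alternatives on the recovered reads, rounded to whole numbers. In simulated data 200 of 19373 rows were changed, with the same dispersion (extra spread between libraries) for every row. For DAC against untreated, limma recovered 50 of 50 increases of 4-fold, 23 of 50 of 2-fold and 2 of 50 of 1.5-fold. It also recovered 33 of 50 decreases to 0.25 of the level. Biotypes, positions and bases shared between transcripts came from GENCODE 44 (174768 of 197782 rows matched). Libraries of a group differed by more than sampling noise (chi-square per degree of freedom 2.05 to 8.19), so none was counted as a duplicate.

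Values in every library are given for the member with the smallest adjusted p of its role in each comparison against untreated, for CDK1, CCNB1 and MKI67, and for others that were called, which were chosen after their values were seen. In the further lists, the highest and lowest genes called with DAC + ATRA are named. FOXM1, MCM6, CDKN1A and the lineage markers were chosen after their values were seen. Alternatives were other scalings, filters, a pseudocount of 0.1, protein-coding rows only, rows of a gene summed, only the groups compared, and leaving out each library.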

Additional observations from a re-analysis of the deposited data

How the results depend on the processing

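The 20 called log2 fold changes of single members, those of CDC25B and NUSAP1 included, kept their direction in all 425 values under the alternatives in which they were tested, and 35 of these fell short of the threshold. The number of members called with DAC, 7 of 29, became 4 of 19 with at least 10 reads required in every library (34.9% of all rows) and 3 of 16 among protein-coding transcripts only (39.4%). Both alternatives test fewer members. With DAC + ATRA, 7 of 29 became 11 with TMM scaling in limma (42.0% of all rows), 14 with scaling to the library total (42.6%), and 4 of 16 among protein-coding transcripts (46.8%). ANLN and CDC25B are among the 14. Scaling to the library total moved the median of all rows by -0.14, and the cause of the count under TMM was not tested. Against ATRA, 6 of 29 became 3 of 16 among protein-coding transcripts (34.9%). Leaving out 1 library at a time gave 5 to 8 members with DAC (27.1% to 35.8% of all rows), 5 to 10 with DAC + ATRA (12.1% to 17.1% lower and 22.1% to 26.7% higher), 4 to 6 for DAC + ATRA against ATRA (24.1% to 29.5%), and 0 to 0 for ATRA against untreated, for DAC + ATRA against DAC and for the interaction. Those last 3 counts were 0 under every alternative run. KIF4A with DAC was the call lost most often. No paired analysis was possible because the columns carry running numbers and not the replicate numbers of the labels. The 12 untested members had too few counted reads to be compared, and why was not tested. In data simulated over all rows, with 200 rows changed and not split by depth, 2 of 50 increases of 1.5-fold were called. Far more rows were called in the measured data, so this share does not carry over to the tests above.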
